A study of Homo sapiens with 2 samples.

Results

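The genes examined here are 40 genes of glucose uptake, glycolysis, lactate handling, oxygen sensing and the transcriptional response to low oxygen, taken as a fixed list, and the values are those of every probe set annotated to 1 of them. The list was followed in the 2 arrays of a study that asked which genes S100A7 regulates, 1 array of MDA-MB 231 cells stably transfected with S100A7 in the plasmid pIRES2-EGFP and 1 array of MDA-MB 231 cells stably transfected with pIRES2-EGFP alone. S100A7, or psoriasin, is a small calcium-binding protein, pIRES2-EGFP expresses a green fluorescent protein beside the inserted gene, and MDA-MB 231 is an invasive human breast cancer line that lacks the estrogen receptor. The labels do not say whether either culture was a single clone or a pool of selected cells, and they give the confluence at harvest for the vector cells and not for the S100A7 cells. Both cultures were labelled as grown in DMEM with fetal bovine serum and antibiotics under the same gas and temperature. The description of the S100A7 sample also mentions early embryos, which cannot apply to cultured cells, and that line was set aside. No oxygen level was varied.

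Of the 40 genes, 37 had a probe set named in the platform's annotation table, and all 37 were measured. The lactate transporter genes SLC16A1 and SLC16A3 and the carbonic anhydrase gene CA9 had none named there and were not analysed here. The 37 genes had 87 probe sets besides 3 control probe sets of GAPDH, out of 54675 probe sets for 19775 genes in all. A probe set was called measured when its intensity reached the array's own 50th percentile, called the floor (69.0 on the S100A7 array and 71.0 on the vector array), on at least 1 array, which 79 of the 87 did. The brightest of a gene's measured probe sets stood for that gene, and log2 ratios are those of S100A7 cells over vector cells, so that a value above 0 is higher in S100A7 cells. With 1 array per group there was no test, no p-value and no error between cultures. In place of these stands the standard deviation between probe sets of the same gene, 0.36 on the log2 scale over 6465 genes and 0.39 over the 22 listed genes with at least 2 measured probe sets, which covers differences between probes and not between cultures.

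The transfected gene was high only on the array labelled with it. S100A7 read 13232 on the S100A7 array, against 11.99 on the vector array, at least 186-fold higher relative to the floor. Markers of the cell line were present on both arrays, with VIM (vimentin, a mesenchymal filament) at 35575 in S100A7 cells and 38087 in vector cells, while ESR1, PGR and CDH1 were below the floor on both. Of 6 blood cell markers, 5 were below the floor on both arrays, and the summed intensity of the 6 was 234 in S100A7 cells and 274 in vector cells. The 4 fibroblast markers summed to 654 in S100A7 cells and 970.2 in vector cells. DCN and LUM were below the floor on both arrays, and COL1A2 was above it only on the S100A7 array. COL1A1 read 487 in S100A7 cells and 842 in vector cells on its brightest probe set. The 3 endothelial markers summed to 263 in S100A7 cells and 173 in vector cells. VWF was below the floor on both arrays, and CDH5 was above it only on the S100A7 array. PECAM1 read 168 in S100A7 cells and 132 in vector cells on its brightest probe set. The ratio of 3' to 5' control intensity for GAPDH was 0.801 on the S100A7 array and 0.718 on the vector array, and that for ACTB was 1.07 on the S100A7 array and 1.09 on the vector array. The part of these differences in the results was not tested.

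As background, glycolysis splits glucose into pyruvate, and in many tumour cells much of the pyruvate is reduced to lactate and exported even when oxygen is present. Several steps are served by isoenzymes encoded by different genes, one widely expressed and others typical of certain tissues. When oxygen falls, the prolyl hydroxylases of the EGLN family no longer mark the transcription factor subunit HIF-1 alpha for destruction, and HIF-1 then raises transcription of genes for glucose transporters, glycolytic enzymes, pyruvate dehydrogenase kinases, carbonic anhydrases and others through short hypoxia response elements. This control acts mainly on the protein, so the mRNA of HIF1A is not a measure of HIF-1 activity.

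Most of the genes differed little between the arrays. ALDOC, HIF1A, BHLHE40, ENO2 and PFKFB3 were at least 1.5-fold higher in S100A7 cells, and SLC2A3 and ANKRD37 were at least 1.5-fold lower. Only ALDOC of the 37 genes was at least 2-fold higher, against 1.80% of all 12688 measured genes, and 0 of the 37 were at least 2-fold lower, against 2.25% of all measured genes. At a size of 1.5-fold, 5 of the 37 (13.5%) were higher, beside 8.12% of all measured genes, and 2 (5.41%) were lower, beside 10.0%. The other 30 differed by less than 1.5-fold. Over the 37 genes the log2 ratios had a median of -0.01, against -0.04 over all measured genes, with 18 of the 37 above 0 and 19 below. Median centring, which adds 0.04 to every log2 ratio, and quantile normalization put 22 of the 37 above 0, so signs this close to 0 are not read as a direction. In total RNA of a culture, fewer cells expressing a gene and less RNA per cell cannot be told apart.

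**Figure D1:**
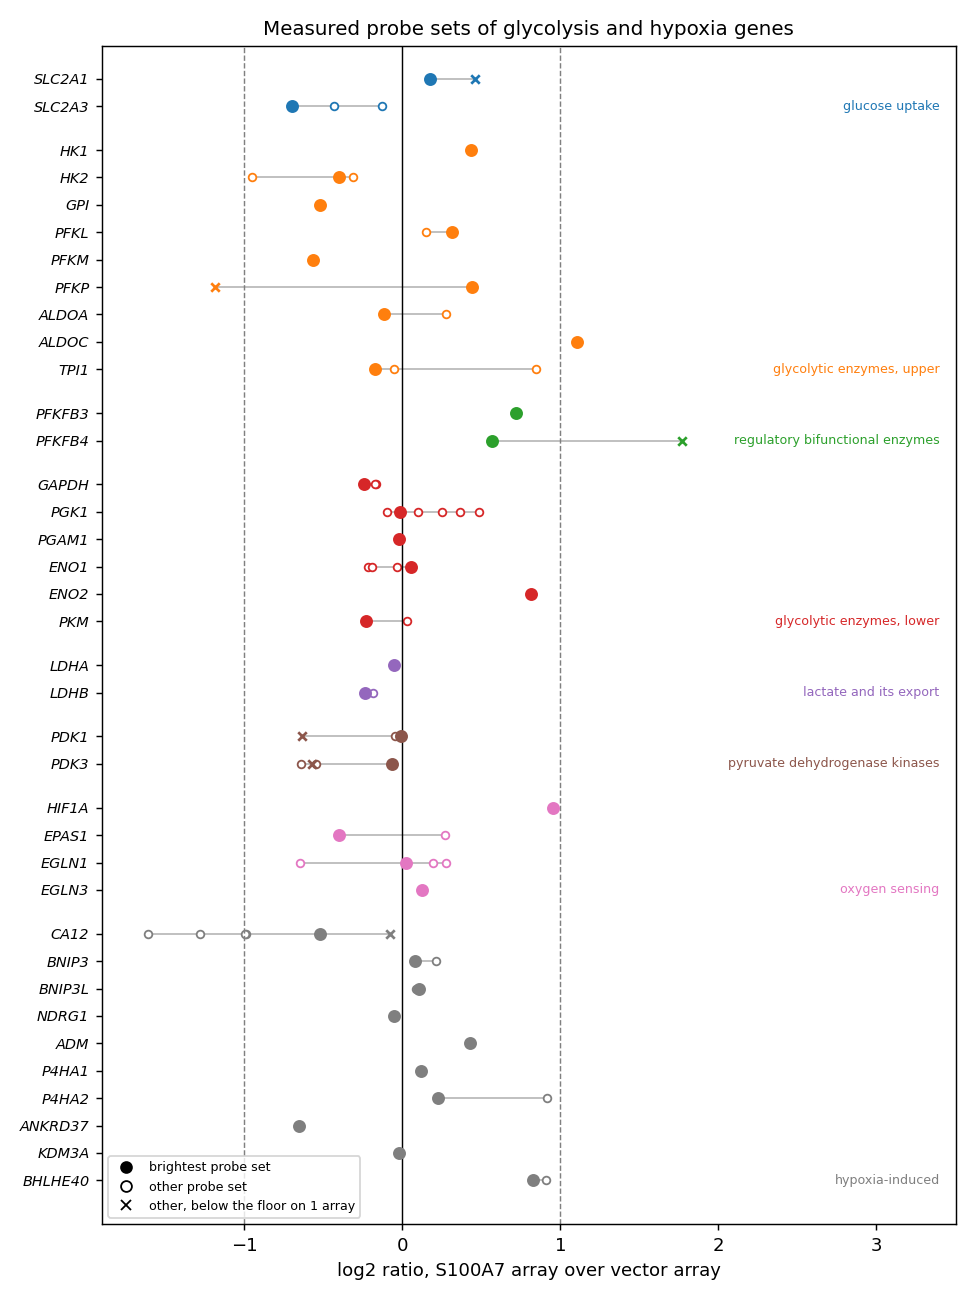
Log2 ratio of S100A7 cells over vector cells (horizontal axis) for the measured probe sets of the 37 genes, in groups by role from glucose uptake at the top to hypoxia-induced genes at the bottom. Filled circles are the brightest probe set of each gene, open circles other probe sets, crosses probe sets below the floor on 1 array, and dashed lines mark 2-fold. ALDOC at 1.10 is the only filled circle past a dashed line, while 2 open circles of CA12 lie at -1.28 and -1.61.

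**Figure D2:**
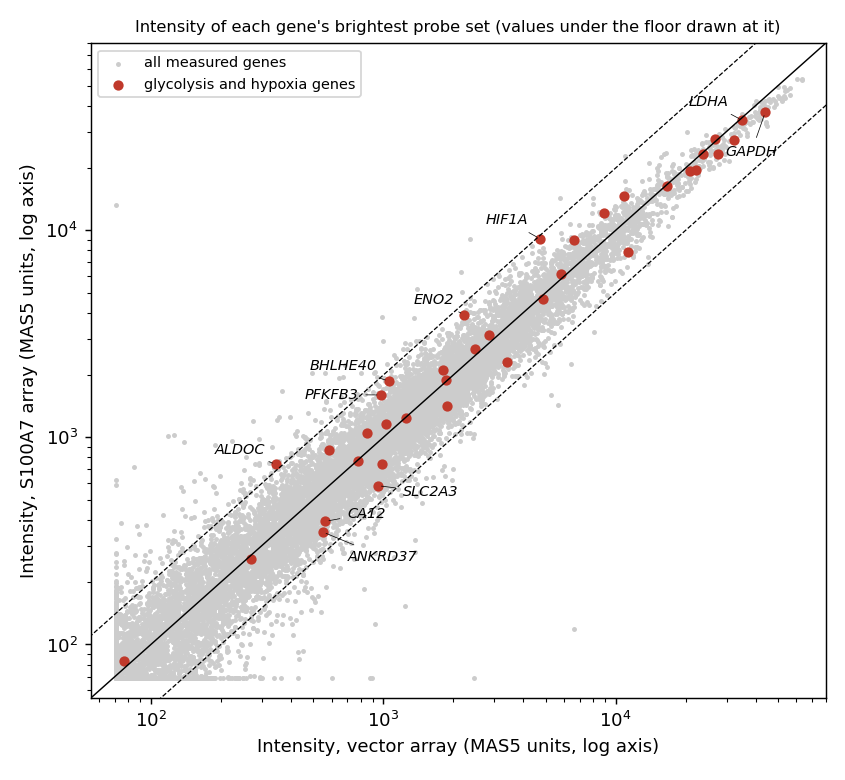
Intensity on the S100A7 array (vertical, log axis) against that on the vector array (horizontal, log axis) for the brightest probe set of each measured gene, with the 37 genes in red, the line of equal intensity solid and 2-fold dashed. The 11 genes with a mean of 10000 or more lie close to the solid line, and ALDOC lies just above the upper dashed line.

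Genes read by bright probe sets differed less than genes read by dim ones, in the list as over all measured genes. Among the 37 genes, 11 had a mean intensity of 10000 or more on the 2 arrays: PFKP, ALDOA, TPI1, GAPDH, PGK1, PGAM1, ENO1, PKM, LDHA, LDHB and ADM. Their log2 ratios ran from -0.24 to 0.44, and 0 were 1.5-fold apart, against 2.67% of the 487 measured genes this bright. Of the 11, 8 were below 0 (6 with median centring and 5 with quantile normalization). The share of the 487 below 0 was not counted, so no direction is read from the 8. Of the 26 dimmer genes, 7 were 1.5-fold apart (26.9%), against 18.8% of the 12201 dimmer genes overall. The brightest of the 37, GAPDH, reached 37187 in S100A7 cells and 44044 in vector cells, where the highest intensity of any probe set was 53801 on the S100A7 array and 63370.2 on the vector array. Whether the bright probe sets still followed the amount of RNA in proportion was not tested.

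The 250 bases upstream of the RefSeq transcription start (assembly GRCh38.p14) are given for 5 genes with 1 start in the table, chosen to set 3 genes that were higher in S100A7 cells (ALDOC, ENO2 and BHLHE40) beside a gene whose probe sets were lower (CA12) and a widely expressed isoenzyme with a log2 ratio near 0 (ENO1). Capitals mark the core of the hypoxia response element, ACGTG or GCGTG, or its reverse complement CACGT or CACGC. The palindrome CACGTG, also a general E-box, holds a match on each strand and counts as 2. The windows were ALDOC chr17:28576896-28577145 (minus strand), ENO2 chr12:6914330-6914579 (plus strand), BHLHE40 chr3:4979187-4979436 (plus strand), CA12 chr15:63381847-63382096 (minus strand) and ENO1 chr1:8878687-8878936 (minus strand), each read 5' to 3' in the direction of the gene.
ALDOC: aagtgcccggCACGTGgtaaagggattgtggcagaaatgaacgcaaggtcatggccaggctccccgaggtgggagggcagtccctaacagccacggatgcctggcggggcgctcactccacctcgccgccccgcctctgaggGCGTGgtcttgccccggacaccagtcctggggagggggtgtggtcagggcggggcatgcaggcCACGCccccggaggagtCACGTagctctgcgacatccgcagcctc
ENO2: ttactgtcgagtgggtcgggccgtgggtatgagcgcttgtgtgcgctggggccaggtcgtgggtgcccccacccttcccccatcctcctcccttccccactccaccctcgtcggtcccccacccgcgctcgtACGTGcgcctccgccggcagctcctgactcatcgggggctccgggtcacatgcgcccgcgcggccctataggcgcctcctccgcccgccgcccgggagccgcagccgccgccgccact
BHLHE40: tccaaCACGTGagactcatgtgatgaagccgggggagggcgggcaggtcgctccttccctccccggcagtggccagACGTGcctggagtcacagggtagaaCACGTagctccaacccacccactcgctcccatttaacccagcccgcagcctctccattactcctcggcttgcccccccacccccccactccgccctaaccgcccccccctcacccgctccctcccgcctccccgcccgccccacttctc
CA12: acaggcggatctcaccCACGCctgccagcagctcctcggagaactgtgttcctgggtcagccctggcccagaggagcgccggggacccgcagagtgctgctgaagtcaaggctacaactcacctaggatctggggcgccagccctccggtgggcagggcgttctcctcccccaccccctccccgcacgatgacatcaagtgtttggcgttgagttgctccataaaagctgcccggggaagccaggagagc
ENO1: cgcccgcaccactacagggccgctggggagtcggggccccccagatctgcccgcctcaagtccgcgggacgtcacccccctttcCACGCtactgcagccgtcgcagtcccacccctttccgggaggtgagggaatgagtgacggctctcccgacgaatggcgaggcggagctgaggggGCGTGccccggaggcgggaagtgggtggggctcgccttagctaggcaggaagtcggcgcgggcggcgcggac

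ALDOC had 5 matches, BHLHE40 4, ENO1 2, and ENO2 and CA12 had 1 each. Because these 5 genes were chosen by their log2 ratios, nothing is read from how the counts and the ratios compare. Windows with 4 or more matches made up 3.22% of the 35116 windows in the table. A match was present in 43.2% of all windows and in 35 of the 58 windows (60.3%) of the 34 measured genes on the list that the table holds. By gene, 28 of the 34 (82.4%) had a match in at least 1 window, against 47.4% of all genes in the table, although several of the 34 have many starts and thus more windows to match in. SLC2A3, BNIP3L and NDRG1 have no window here. The list holds genes of the response to low oxygen by choice, so these shares say nothing about the 2 arrays. Such a match describes the letters and is no evidence of binding.

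Glucose uptake was read by SLC2A1 and SLC2A3, which encode the transporters GLUT1 and GLUT3. SLC2A1 read 1158 in S100A7 cells and 1025 in vector cells (1.13-fold higher), and its dimmer probe set read 97.9 in S100A7 cells and 25.7 in vector cells, the second value below the floor. SLC2A3 went the other way, with 585 in S100A7 cells and 948 in vector cells (1.62-fold lower). All 3 of its probe sets were lower, the others by less, at log2 ratios of -0.43 and -0.13. The 3 carry the suffixes _x_at or _s_at, which mark probes that can match several transcripts, and a further pair of probe sets that list SLC2A3 together with its close relative SLC2A14 stood at -0.19 and -0.04. The lower value of SLC2A3 therefore shrinks with the probe set chosen.

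The first steps of glycolysis, from hexokinase to triosephosphate isomerase, had 9 genes with a median log2 ratio of -0.11, 4 above 0 and 5 below. Hexokinases trap glucose in the cell as glucose 6-phosphate. HK1, the widely expressed form, read 8970.02 in S100A7 cells and 6624 in vector cells (1.35-fold higher), and HK2, the form often induced in tumours, read 1426 in S100A7 cells and 1885 in vector cells (1.32-fold lower). All 3 HK2 probe sets were lower, between -0.95 and -0.31 on the log2 scale. GPI, which turns glucose 6-phosphate into fructose 6-phosphate, read 7866 in S100A7 cells and 11273 in vector cells (1.43-fold lower).

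Phosphofructokinase, the committed step of glycolysis, is built from liver (PFKL), muscle (PFKM) and platelet (PFKP) subunits. PFKP read 12083 in S100A7 cells and 8913 in vector cells (1.36-fold higher), PFKL 1054 in S100A7 cells and 847 in vector cells (1.24-fold higher), and PFKM 2314 in S100A7 cells and 3423 in vector cells (1.48-fold lower). On these brightest probe sets the liver and platelet subunits were higher and the muscle subunit lower. The second PFKP probe set contradicted the first, at 63.4 in S100A7 cells, below the floor, and 157 in vector cells, at least 2.28-fold lower. With the median over its probe sets PFKP had a log2 ratio of -0.37, so no direction is read for the platelet subunit. TPI1, triosephosphate isomerase, was near parity at its bright probe set, 19626 in S100A7 cells and 22079 in vector cells, while a dim one read 179 in S100A7 cells and 99.8 in vector cells.

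The bifunctional enzymes PFKFB3 and PFKFB4, which make and break fructose 2,6-bisphosphate, the activator of phosphofructokinase, were both higher in S100A7 cells. PFKFB3, whose kinase activity prevails, read 1603 in S100A7 cells and 973 in vector cells (1.65-fold higher) on its 1 probe set. PFKFB4 read 868 in S100A7 cells and 585 in vector cells (1.48-fold higher), and its second probe set read 243 in S100A7 cells and 26.5 in vector cells, at least 3.41-fold higher. Taking the median of its probe sets, PFKFB4 had a log2 ratio of 1.17 and joined ALDOC past 2-fold. The 40 genes nearest to PFKFB3 along chromosome 10 had a median log2 ratio of 0.28, and PFKFB3 was at 0.44 relative to them, under 1.5-fold. For PFKFB4 on chromosome 3 the neighbours stood at 0.02.

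The aldolases, which split fructose 1,6-bisphosphate, gave the clearest contrast between isoenzymes. ALDOC, the form typical of brain, read 740.3 in S100A7 cells and 345 in vector cells (2.15-fold higher) on 1 probe set. ALDOA, the widely expressed form, read 19351 in S100A7 cells and 20933 in vector cells (1.08-fold lower), and its other probe sets stood at -0.12 and 0.28. The difference of the log2 ratios, ALDOC minus ALDOA, was 1.22, and no ALDOA probe set reached the ALDOC value. The promoter window of ALDOC printed above had 5 matches to the hypoxia element core, its CACGTG being counted on both strands. The printed windows were chosen by log2 ratio, so their counts cannot bear on a link between matches and log2 ratios. Such a link was not tested. All ALDOA probe sets carry the suffix _x_at, so other aldolase-like transcripts may add to them.

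The later steps, from GAPDH to pyruvate kinase, were mostly read by bright probe sets, and 5 of the 6 genes differed by less than 1.5-fold, ENO2 being the exception, with a median log2 ratio of -0.02 over 6 genes, within the 0.04 that median centring adds. GAPDH, PKM (the pyruvate kinase of most tissues) and PGAM1 (phosphoglycerate mutase) stood at -0.24, -0.23 and -0.02, and PGK1, phosphoglycerate kinase, stood at -0.01. The other PKM probe set stood at 0.03. Relative to its chromosome 15 neighbours, whose median was -0.42, PKM stood at 0.19, so no direction is read for it. The 3 GAPDH probe sets ran from -0.24 to -0.17, and its 3 control probe sets stood at -0.24, -0.23 and -0.08. The 6 PGK1 probe sets spread from -0.09 to 0.48, the 4 above 0 being dimmer than the brightest. GAPDH, PGK1, ENO1, LDHB and TPI1 are read by probe sets with shared-transcript suffixes, and processed pseudogenes of such enzymes could add to them.

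Enolase, which forms phosphoenolpyruvate, repeated the contrast seen for aldolase. ENO2, the neuronal form, read 3921 in S100A7 cells and 2227 in vector cells (1.76-fold higher) on 1 probe set. ENO1, the widely expressed form, read 27718.5 in S100A7 cells and 26702 in vector cells (1.04-fold higher), and its 4 probe sets lay between -0.22 and 0.05. The difference, ENO2 minus ENO1, was 0.76. In both families the gene that is typical of nervous tissue differed more between the arrays than the widely expressed one. In both, the widely expressed gene had a mean intensity above 10000 and the other gene was dimmer. Of all measured genes, 2.67% of those with a mean of 10000 or more were 1.5-fold apart, against 18.8% of dimmer ones. Isoenzyme type and brightness of the probe set cannot be told apart in these pairs.

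**Figure D3:**
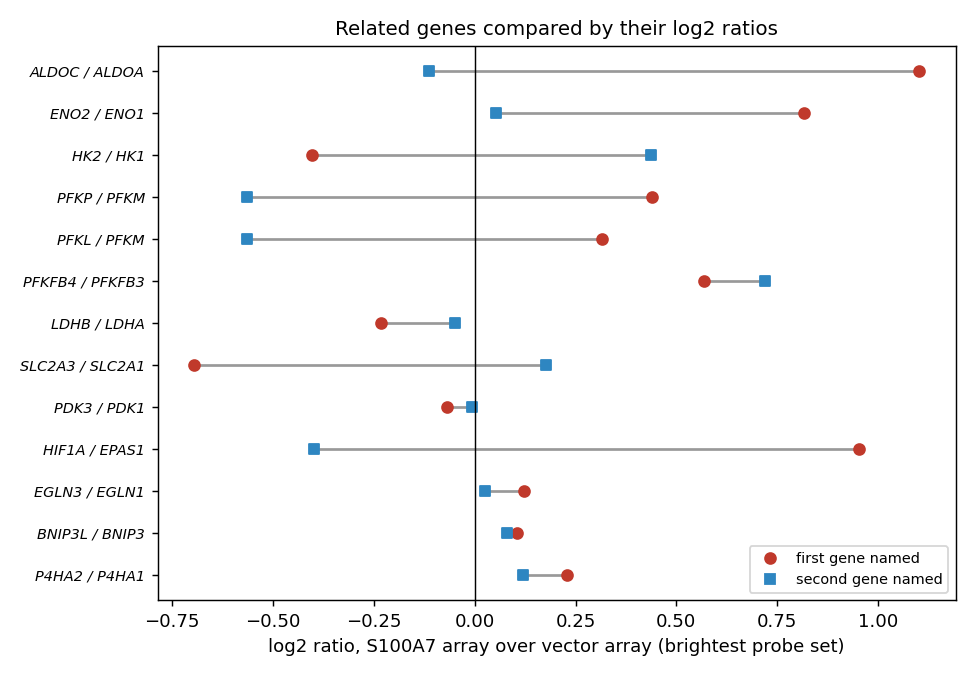
Log2 ratio of S100A7 cells over vector cells for 13 pairs of related genes, the gene named first as a red circle and the gene named second as a blue square, each from its brightest probe set. ALDOC with ALDOA and HIF1A with EPAS1 are the widest pairs, at differences of 1.22 and 1.35.

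Lactate dehydrogenase, which turns pyruvate into lactate and back, was near parity. LDHA read 33946 in S100A7 cells and 35131 in vector cells (1.03-fold lower), and LDHB 27350.3 in S100A7 cells and 32151 in vector cells (1.18-fold lower). The pyruvate dehydrogenase kinases keep pyruvate out of the mitochondrial citric acid cycle. No measured probe set of PDK1 or PDK3 was higher, but median centring put PDK1 at a log2 ratio of 0.04, so no direction is read. PDK1 read 773 in S100A7 cells and 776 in vector cells, and PDK3 258 in S100A7 cells and 270.3 in vector cells. The 3 dimmer measured PDK3 probe sets were lower by more, between -0.64 and -0.55, as was a dim PDK1 probe set at -0.63. That PDK1 probe set and the PDK3 probe set at -0.57 were below the floor on the S100A7 array.

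Among the oxygen sensing genes HIF1A stood out. HIF1A, the oxygen-regulated subunit of HIF-1, read 9120.4 in S100A7 cells and 4713 in vector cells (1.94-fold higher) on 1 probe set. EPAS1, which encodes the related subunit HIF-2 alpha, read 746 in S100A7 cells and 983 in vector cells (1.32-fold lower), although its dimmer probe set was 1.21-fold higher. The difference HIF1A minus EPAS1 was 1.35. The hydroxylase gene EGLN1 read 1900 in S100A7 cells and 1867 in vector cells, with its other probe sets from -0.64 to 0.28, and EGLN3, itself a HIF target, was close to the floor at 83.1 in S100A7 cells and 76.3 in vector cells. Relative to the median of its chromosome 14 neighbours, 0.15, HIF1A stood at 0.80.

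The hypoxia-induced group held 10 measured genes that were not placed under another role. Genes of glucose uptake, glycolysis, pyruvate dehydrogenase kinases and oxygen sensing were counted elsewhere, although hypoxia also induces some of them. Of the 10, 1 was at least 1.5-fold higher, 1 was at least 1.5-fold lower, and the median log2 ratio was 0.09. BHLHE40, a transcriptional repressor that also serves the circadian clock, read 1871 in S100A7 cells and 1056 in vector cells (1.77-fold higher), and its other probe set read 593 in S100A7 cells and 316 in vector cells. All of its measured probe sets were thus at least 1.5-fold higher, which held for 2.41% of the 6465 genes with 2 or more measured probe sets. Its chromosome 3 neighbours stood at 0.25, which leaves 0.58, just under 1.5-fold. ADM, the vasodilator peptide adrenomedullin, read 14598 in S100A7 cells and 10849 in vector cells (1.35-fold higher).

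CA12, a membrane carbonic anhydrase that acidifies the cell surroundings, was lower in S100A7 cells on each of its 6 measured probe sets. On its brightest probe set it read 393 in S100A7 cells and 564 in vector cells (1.43-fold lower). The next 2 read 316 and 230.1 in S100A7 cells, against 628 and 458 in vector cells, and both were 1.98-fold to 1.99-fold lower. A further pair read 162 and 85.1 in S100A7 cells, against 393 and 259 in vector cells, 2.43-fold and 3.05-fold lower. All 5 probe sets above the floor on both arrays were lower in S100A7 cells, and the difference was smallest on the brightest one, which stands for the gene. Across the 6 measured probe sets, the sixth being below the floor on the S100A7 array, the median log2 ratio was -0.99, and a median at least 1.5-fold lower was found in 5.97% of genes with 2 or more measured probe sets. The chromosome 15 neighbours of CA12 stood at -0.25.

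**Figure D4:**
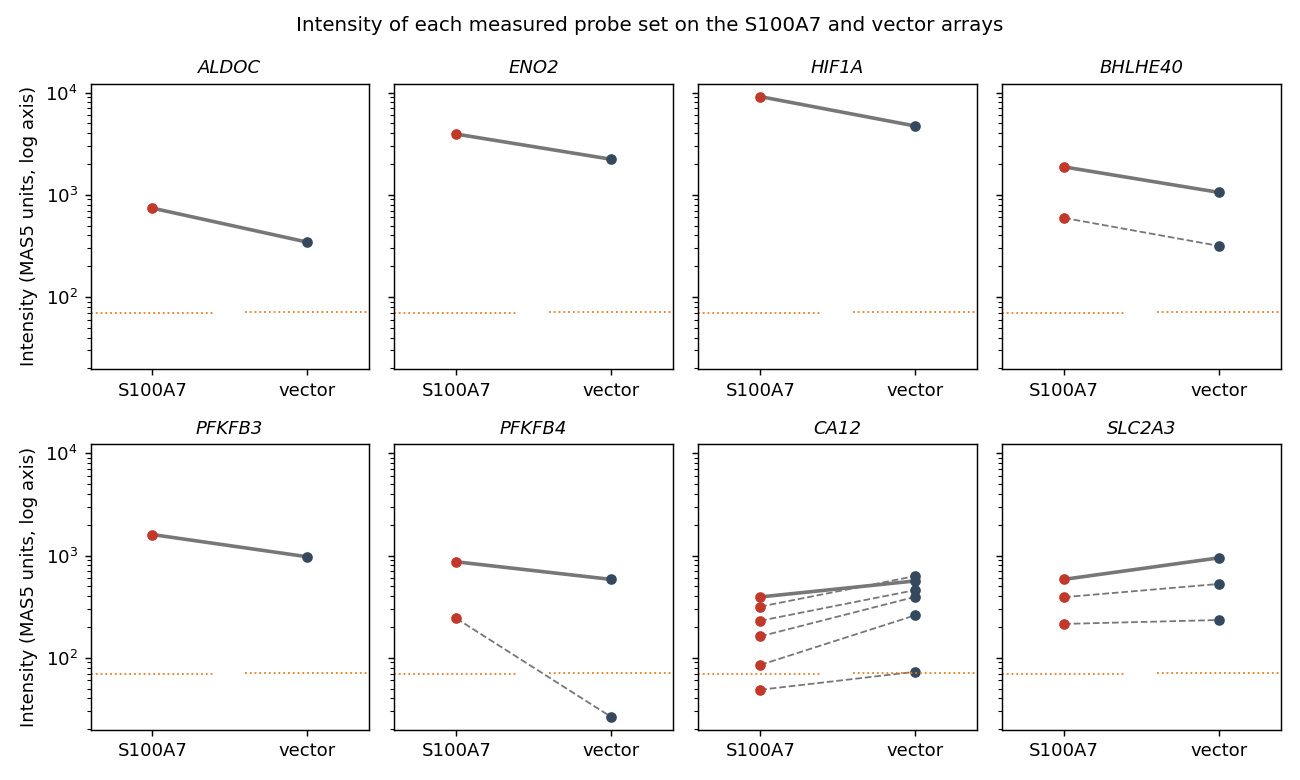
Intensity (log axis) of each measured probe set on the S100A7 array (left, red) and the vector array (right, dark blue) for 8 genes, with a solid line for the brightest probe set, dashed lines for the others and a dotted orange line at each array's floor. The lines of CA12 and SLC2A3 all run higher on the vector array, and those of the other 6 genes run higher on the S100A7 array.

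The remaining genes of the hypoxia-induced group were mostly level. ANKRD37, an ankyrin repeat gene and direct HIF-1 target, read 349 in S100A7 cells and 549 in vector cells (1.57-fold lower). The mitophagy receptors BNIP3 and BNIP3L, the collagen prolyl hydroxylase subunit P4HA1, the stress gene NDRG1 and the histone demethylase KDM3A stood at log2 ratios of 0.08, 0.10, 0.12, -0.05 and -0.02. P4HA2, the other collagen hydroxylase subunit, was 1.17-fold higher, with a second probe set at 408 in S100A7 cells and 216 in vector cells (1.89-fold higher). Within this group, BHLHE40 was thus at least 1.5-fold higher, ANKRD37 was at least 1.5-fold lower, and CA12 was lower on each measured probe set. This does not describe all genes of the list that HIF-1 can raise. ALDOC, ENO2 and PFKFB3, at least 1.5-fold higher, and SLC2A3, at least 1.5-fold lower, were counted in other groups.

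Related genes were compared in 13 pairs through their log2 ratios, since intensities of different probe sets are not on a common scale. The difference exceeded 0.51, the standard deviation between probe sets carried to a difference of 2 log2 ratios, in 7 pairs: ALDOC with ALDOA, ENO2 with ENO1, HK2 with HK1 (-0.84), PFKP with PFKM (1.00), PFKL with PFKM (0.88), SLC2A3 with SLC2A1 (-0.87) and HIF1A with EPAS1. It did not in PFKFB4 with PFKFB3 (-0.15), LDHB with LDHA (-0.18), PDK3 with PDK1 (-0.06), EGLN3 with EGLN1 (0.10), BNIP3L with BNIP3 (0.02) and P4HA2 with P4HA1 (0.11). How often 2 unrelated measured genes differ by over 0.51 was not counted. The 7 of 13 pairs are therefore not read as more than the usual share. The ranges of the probe sets overlapped in 5 pairs, PFKP with PFKM among the 7. With the median over probe sets, PFKP minus PFKM was 0.19, no longer past 0.51, and PDK3 minus PDK1 was -0.52, past it. After subtraction of the chromosomal neighbours, HK2 minus HK1 was -0.28, because the neighbours of HK1 on chromosome 10 stood at 0.34 and those of HK2 on chromosome 2 at -0.22. Neither the differences nor this spread include variation between cultures.

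Agreement between probe sets divided the 22 genes that had at least 2 measured. All were above 0 for 7 genes (SLC2A1, PFKL, PFKFB4, BNIP3, BNIP3L, P4HA2 and BHLHE40) and below 0 for 7 (SLC2A3, HK2, GAPDH, LDHB, PDK1, PDK3 and CA12). The probe sets of the other 8 pointed both ways, and for PFKP, TPI1, PGK1, EPAS1 and EGLN1 they lay over 0.5 apart. How often the probe sets of a gene agree in sign over all measured genes was not counted. These counts are therefore not read as more than the usual share. The values of ALDOC, ENO2, HIF1A, PFKFB3 and ANKRD37, by contrast, rest on 1 measured probe set each, as do those of 15 genes in all. At the level of probe sets, 2 of the 79 (2.53%) were at least 2-fold higher, beside 2.20% of all measured probe sets, and 3 (3.80%) at least 2-fold lower, beside 2.13%, of which 2 were of CA12.

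Other genes of the pathway are read beside the shares of all measured genes given above, 1.80% for 2-fold higher and 2.25% for 2-fold lower, which leave room for few calls in lists of this size. Of 32 further genes of glycolysis and pyruvate use, 24 were measured, 0 were at least 2-fold apart, 10 were above 0 and the median log2 ratio was -0.05. Of 13 further oxygen sensing genes, 11 were measured, 0 were 2-fold apart by the brightest probe set, 6 were above 0 and the median was 0.10. CITED2 came closest, 1.90-fold higher there and at a log2 ratio of 1.11 on its other measured probe set. Of 22 further hypoxia-induced genes, 18 were measured, 0 were at least 2-fold higher and 1 was at least 2-fold lower, with a median of -0.03. The 1 was PPP1R3C, a glycogen-targeting phosphatase subunit, at 119.6 in S100A7 cells and 275 in vector cells (2.30-fold lower). The angiogenic HIF targets VEGFA and ANGPTL4 read 1289 and 213 in S100A7 cells, against 1529 and 143 in vector cells. Other genes under 2-fold differed more, among them ANKZF1, 1.92-fold higher, and TMEM45A, 1.85-fold lower. The 4 measured probe sets of VEGFA pointed both ways, with log2 ratios from -0.25 to 0.19.

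**Figure D5:**
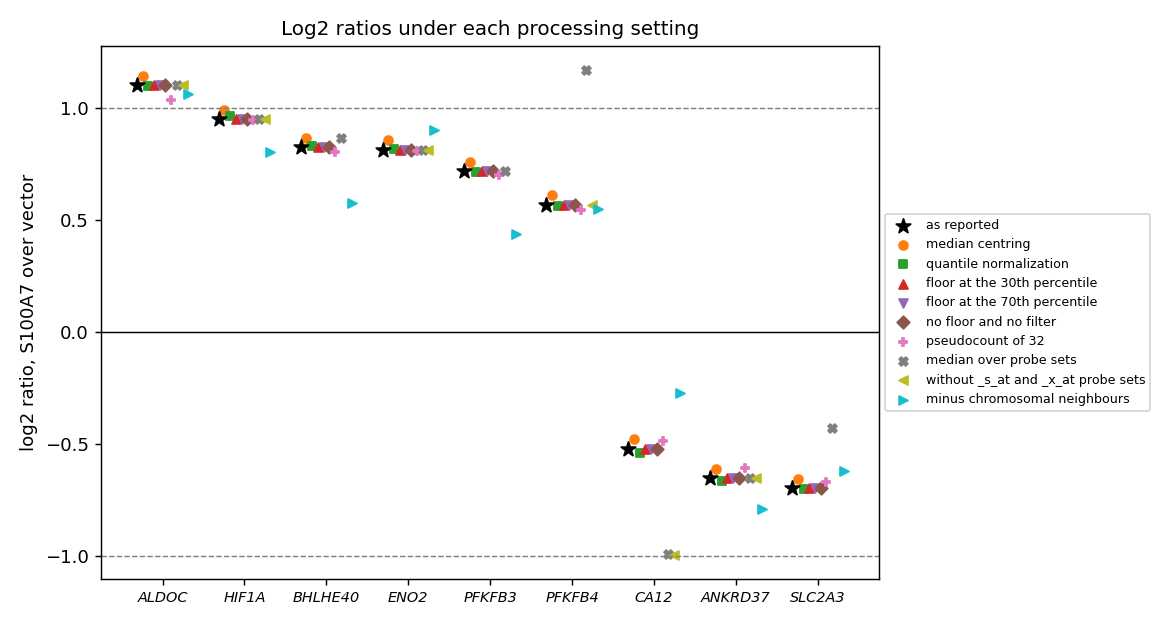
Log2 ratio of S100A7 cells over vector cells (vertical axis) for 9 genes, as reported (black star) and under 9 other processing settings (coloured symbols), with dashed lines at 2-fold. ALDOC stays between 1.04 and 1.14, while CA12 ranges from -0.99 to -0.27 and PFKFB4 from 0.54 to 1.17.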

How the data were processed

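The authors deposited a linear intensity for every probe set, computed with MAS5 per the submitters' processing notes; the sources used here give no MAS5 version, scaling target or detection calls. Both arrays had a trimmed mean of 500.1 (2% left out at either end) and were used without further scaling. Columns left unused numbered 0. The platform's annotation table, an old one, named 41097 probe sets with 1 gene, 1801 with several and 11777 with none, and 41043 were given current symbols by Entrez identifier through a RefSeq gene table (GRCh38.p14), which also gave the order of genes. The 62 control probe sets were left out of gene values. Values below the floor were raised to it, and a fold against a floor value is written as at least that size. Genes were counted by size, with no test. The number of arrays limits the precision. The genes and lists were chosen with earlier results of these data known.

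All listed genes may be named, with intensities for those 1.5-fold apart, for related pairs and for probe sets that disagree. Further pathway genes were named where at least 2-fold apart, and VEGFA, ANGPTL4, CITED2, ANKZF1 and TMEM45A apart from this. Alternatives were median centring, quantile normalization, a floor at the 30th or the 70th percentile, none at all, a pseudocount of 32, the median over probe sets, probe sets without _s_at and _x_at, subtraction of the median among the 40 measured genes nearest on the chromosome (20 on each side), and thresholds of 1.5-fold and 3-fold. The counting step was tested on simulated arrays. Python 3.11.15, pandas 2.3.3 and matplotlib 3.10.9 were used.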

Additional observations from a re-analysis of the deposited data

How the results depend on the processing

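ALDOC was at least 2-fold higher under all 9 alternatives other than the thresholds (log2 ratio 1.04 to 1.14). The count of genes at least 2-fold higher, 1 as reported, was 2 with the median over probe sets, where PFKFB4 joined; it was 5 with the threshold of 1.5-fold and 0 with that of 3-fold. The count at least 2-fold lower, 0 as reported and under those 9 alternatives, was 2 with the threshold of 1.5-fold. The median log2 ratio of the list, -0.01 as reported, was 0.084 without _s_at and _x_at probe sets, a setting that measured only 22 of the genes; over the 9 alternatives it ran from -0.02 to 0.084. The difference ALDOC minus ALDOA ran from 1.01 to 1.22 over 8 alternatives, ALDOA having no probe set without those suffixes, and ENO2 minus ENO1 from 0.67 to 1.01 over 9. Signs of single genes changed for 10 of 37 after subtraction of chromosomal neighbours and for 4 with median centring, 4 with quantile normalization, 3 with the median over probe sets and 2 of 22 without shared-transcript suffixes; 0 of these were among the 7 genes 1.5-fold apart. No paired analysis was possible because each group has 1 array. The 2 arrays give no spread between cultures, so none of these ranges covers it.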
